A study of Homo sapiens with 4 samples.

Results

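The epidermal growth factor (EGF) receptors are 4 tyrosine kinases at the cell surface, EGFR, ERBB2, ERBB3 and ERBB4, and most of their ligands are made as membrane proteins that proteases cut free. The genes described are these 4 receptors and 6 ligands, AREG, EREG, HBEGF, TGFA, BTC and NRG1, read through every probe set of the array whose only annotated gene symbol is one of them. This gave 38 of 54613 probe sets, 21 for receptors and 17 for ligands, and they cover 9 of the 10 genes. No probe set carries AREG as its symbol here, so AREG was not analysed. The rule itself uses gene names only, although earlier results of these data were known when the genes were chosen.

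The samples were cultures of LN-229, an established human glioblastoma line. In the control group the cells had no treatment, and in the induced group they had received doxycycline for 48 h to express WIF1, the secreted WNT inhibitory factor. Each group had 2 arrays, described as biological replicates, and all values are log2 intensities. None of the arrays came from cells with doxycycline and no WIF1, so an effect of the drug and one of WIF1 cannot be told apart. Whether the inducible cells are a single clone is not given in the sources used here.

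A ligand brings receptors together in pairs, which then phosphorylate one another and switch on the RAS-ERK and PI3K-AKT cascades. EGFR binds EGF, TGFA, AREG, HBEGF, BTC and EREG, while ERBB3 and ERBB4 bind the neuregulins. ERBB2 has no known ligand of its own and serves as partner, and ERBB3 has little kinase activity and signals through its partners. In glioblastoma EGFR is the family member best known for amplification and truncation.

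No probe set of these genes passed the test: limma called 0 of 38 at an adjusted p under 0.05, against 0 of 54613 (0% called) over the whole array. The lowest adjusted p among them was 0.391. RNA came from whole cultures, in which fewer cells with a transcript and less of it per cell cannot be told apart. At an unadjusted p under 0.05 stood 9 of the 38, 3 higher and 6 lower in the induced arrays, or 23.7%, where all probe sets gave 10.0% in both directions together. The 3 higher became 1 without the first control or without the second induced array. By direction these were 7.89% higher against 4.75% over the array, and 15.8% lower against 5.27%. The 6 lower ones read TGFA (2 probe sets), ERBB3 (2), ERBB2 (1) and EGFR (1), and the 3 higher ones NRG1, HBEGF and EGFR (1 each). These 9 differences ran from -0.37 to 0.41 on the log2 scale. In 5 of the 6 genes (not ERBB2) another probe set, also at or above the median level of the array, did not reach that p. The median difference of the 38 was -0.01, and that of all probe sets was -0.01 as well.

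Most of the 9 were bright. Of the 38 probe sets, 19 had a mean at or above the median level of all probe sets (6.16), and 8 of these stood at an unadjusted p under 0.05, against 12.9% of all probe sets that bright. Below that level it was 1 of 19, against 7.14%. The groups did not overlap in 14 of the 38 probe sets (36.8%), against 41.4% over the array. The induced pair was the higher in 4 (17.9% over the array) and the lower in 10 (23.5% over the array). Precision was limited by the number of arrays: with 2 against 2 an exact permutation test of a single value cannot go below 0.333.

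**Figure D1:**
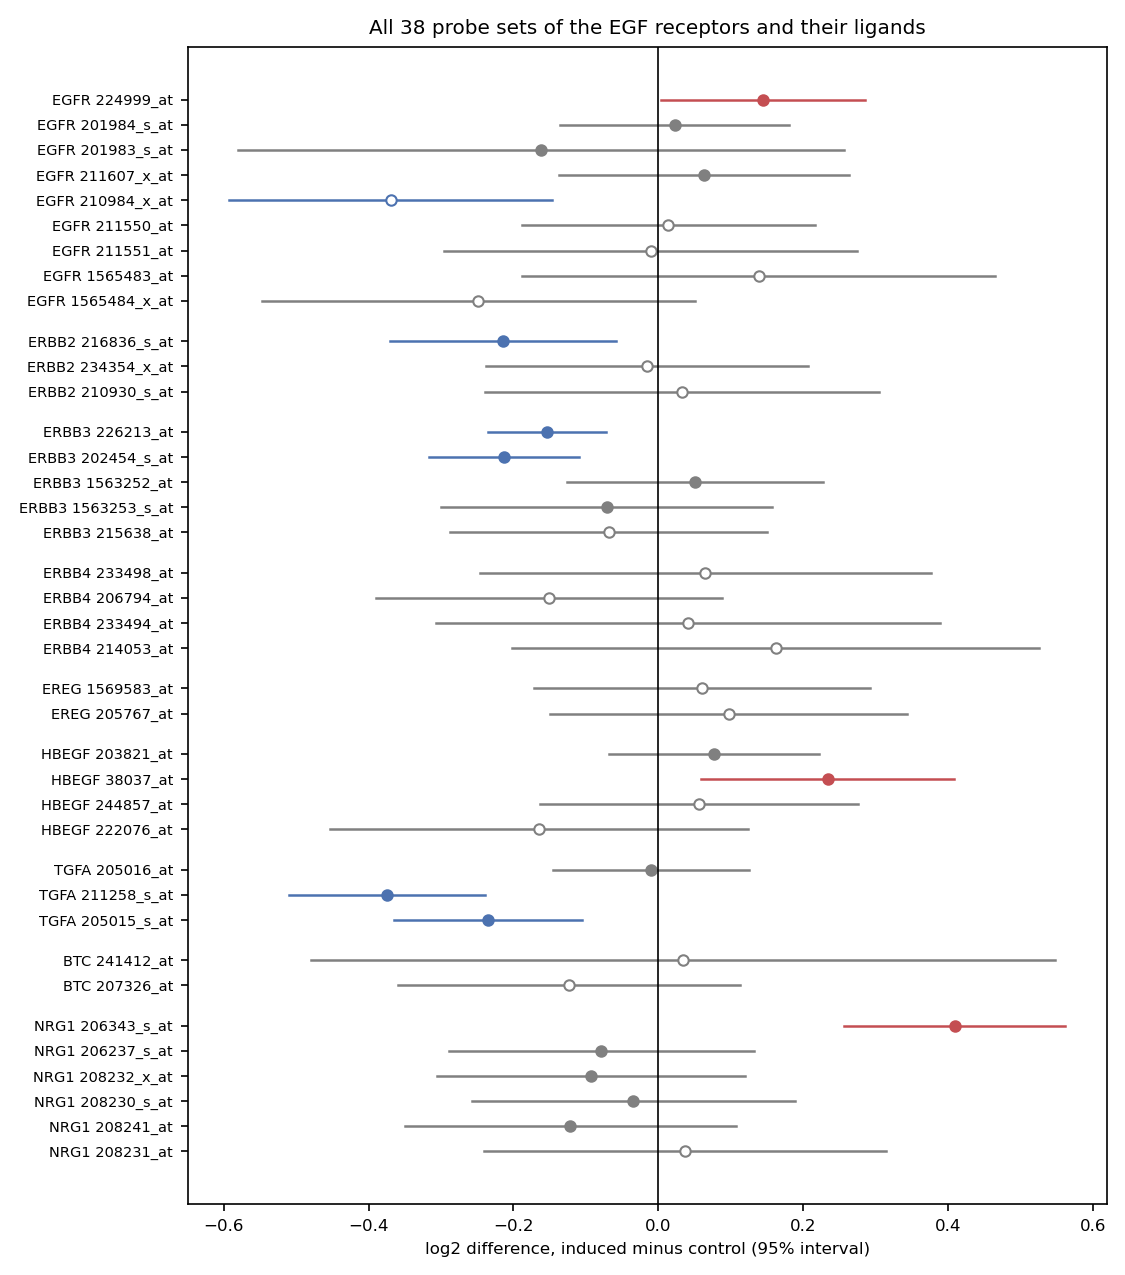
Induced minus control difference (log2 units, horizontal axis) of all 38 probe sets with 95% intervals from the limma model, ordered by gene and, within a gene, from bright to dim. Red marks the 3 higher and blue the 6 lower at an unadjusted p under 0.05, filled circles have a mean at or above the array median, and the points run from -0.37 (TGFA and EGFR) to 0.41 (NRG1).

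Probe sets of 1 gene gave unequal readings in several genes of this family, EGFR, TGFA, HBEGF, ERBB3 and NRG1 among them. The promoters of EGFR and of its ligands TGFA and HBEGF are shown as background, and none of ERBB3 or NRG1 is printed. No probe set was linked to a start site, and a link of promoters to the unequal readings was not tested. They are given as 250 bases before a RefSeq start site (GRCh38.p14), with every GC box (GGGCGG on either strand), AP-1 element (TGANTCA), cyclic AMP response element (TGACGTCA) and TATA box (TATAAA) in capitals. The arrays do not say which start site the cells used. Another TGFA start listed by RefSeq, with no match to any of the 4 motifs, is not printed.
TGFA, chr2:70553827-70554076, minus strand: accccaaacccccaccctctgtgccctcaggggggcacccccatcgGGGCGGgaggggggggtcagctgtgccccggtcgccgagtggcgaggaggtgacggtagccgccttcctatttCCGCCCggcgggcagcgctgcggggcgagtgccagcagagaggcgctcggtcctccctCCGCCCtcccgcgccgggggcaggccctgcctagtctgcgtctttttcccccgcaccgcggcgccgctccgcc
HBEGF, chr5:140346604-140346853, minus strand: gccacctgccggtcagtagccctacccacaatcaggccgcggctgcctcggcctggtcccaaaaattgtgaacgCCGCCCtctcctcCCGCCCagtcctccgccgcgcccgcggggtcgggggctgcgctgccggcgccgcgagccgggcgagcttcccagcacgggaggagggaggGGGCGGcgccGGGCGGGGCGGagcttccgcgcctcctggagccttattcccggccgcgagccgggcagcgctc
EGFR, chr7:55018767-55019016, plus strand: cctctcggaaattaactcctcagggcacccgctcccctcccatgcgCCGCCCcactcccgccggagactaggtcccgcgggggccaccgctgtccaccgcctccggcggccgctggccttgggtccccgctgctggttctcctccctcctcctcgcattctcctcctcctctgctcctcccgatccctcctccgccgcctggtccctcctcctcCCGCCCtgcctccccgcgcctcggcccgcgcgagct
EGFR, second start inside the gene, chr7:55109589-55109838, plus strand: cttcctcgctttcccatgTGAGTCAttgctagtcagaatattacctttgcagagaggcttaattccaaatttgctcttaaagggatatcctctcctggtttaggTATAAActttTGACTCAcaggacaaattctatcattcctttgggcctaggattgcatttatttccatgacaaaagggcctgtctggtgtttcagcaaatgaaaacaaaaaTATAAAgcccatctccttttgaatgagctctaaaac
The GC boxes numbered 3 at TGFA, 5 at HBEGF (a pair of them sharing bases) and 2 at the first EGFR start, in windows with 75.6%, 76.4% and 73.6% G and C. The second EGFR window has 38.8% G and C, no GC box, 2 AP-1 elements and 2 TATA boxes. Over all 35116 windows of this length in the table, 42.6% hold a GC box, 6.57% an AP-1 element, 1.65% a cyclic AMP response element and 10.7% a TATA box. Windows of 8 of the 10 genes were searched, 10 windows in all. ERBB3 had no window, and NRG1 was left out of the search. Of the 10 windows, 5 hold a GC box and 2 an AP-1 element (EGFR and ERBB2). A TATA box is in 3 (EGFR, EREG and AREG) and a cyclic AMP response element in 1 (AREG). These are matches of letters, and no binding was measured.

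Among receptors, ERBB3 was lower at an unadjusted p under 0.05 in its 2 brightest probe sets of 5. ERBB3 pairs with ERBB2 and binds neuregulins, and its tail recruits PI3-kinase. Its brightest probe set (226213_at) read 11.51 and 11.54 in control cells, against 11.38 and 11.36 in induced cells. The next (202454_s_at), built on the current RefSeq mRNA, read 9.93 and 9.97 in control cells, against 9.73 and 9.73 in induced cells. In both the controls were the higher arrays, with gaps between the groups of 0.13 and 0.19 against at most 0.027 and 0.043 between replicates. The differences were -0.15 (SE 0.034, 95% interval -0.24 to -0.073) and -0.21 (SE 0.043, -0.32 to -0.11), each with an adjusted p of 0.472, or 0.90-fold and 0.86-fold. Both kept their sign in all 10 alternative analyses, but the brightest had an unadjusted p of 0.0586 without the trend. The other 3 probe sets, built on other sequence records, did not reach that p. The brightest of them (1563252_at), also above the array median, differed by 0.05, with an interval from -0.13 to 0.23 that excludes both values of the bright pair. The remaining ones differed by -0.07 each, and their intervals include both values.

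ERBB2, the preferred partner of the other receptors, was read by 1 probe set above the array median. This one (216836_s_at) stood at 8.09 and 8.18 in control cells, against 7.89 and 7.95 in induced cells. The groups did not overlap, and the gap of 0.14 exceeded the 0.092 between the controls. The difference was -0.21 (SE 0.064, adjusted p = 0.472), and its unadjusted p was above 0.05 without the second control (0.0975) or without the first induced array (0.0703). The 2 dimmer probe sets of ERBB2 differed by -0.02 and 0.03, and one of them is built on the record of herstatin, a secreted form of the receptor.

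EGFR itself had 9 probe sets, of which 4 lay above the median, and they did not point one way. The brightest (224999_at) read 8.17 and 8.10 in the controls against 8.28 and 8.27 in induced cells, with the induced arrays the higher by a gap of 0.10. Its difference of 0.14 (SE 0.058, adjusted p = 0.492) had an unadjusted p above 0.05 whenever any 1 array was left out (0.0610 to 0.191), with the replicate block (0.0609) and without the trend (0.0821). The probe set on the current RefSeq mRNA (201984_s_at) gave 7.84 and 7.85 in control cells, against 7.92 and 7.82 in induced cells, which enclose the controls. Its difference was 0.02, with an interval from -0.14 to 0.18.

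The probe set of EGFR with the largest size of difference, 210984_x_at, lay just under the array median. It read 6.23 and 6.38 in control cells, against 5.95 and 5.93 in induced cells, which were the lower pair by 0.28. The difference was -0.37 (SE 0.092, adjusted p = 0.472), and it lay between -0.44 and -0.30 in the 9 alternatives that held this probe set. An x_at suffix marks probes that may match other sequences too. A further probe set (201983_s_at) depended on 1 array, with 7.64 and 7.49 in the controls, 7.68 in the first induced array and 7.13 in the second. Without the second induced array it differed by 0.11, and without the first by -0.44. The other 5 lay between -0.25 and 0.14, and their intervals all include 0.

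ERBB4, the other neuregulin receptor with an active kinase, was dim throughout. Its 4 probe sets ran from 3.64 to 5.63 over the 4 arrays, all below the array median, and 0 reached an unadjusted p under 0.05. The differences were 0.16, 0.07, 0.04 and -0.15, and the intervals reach from -0.39 to 0.53. Changes within that range were not resolved at this signal. In 206794_at, built on the current RefSeq mRNA, both induced arrays (5.01 and 4.92) were below both controls (5.09 and 5.14).

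**Figure D2:**
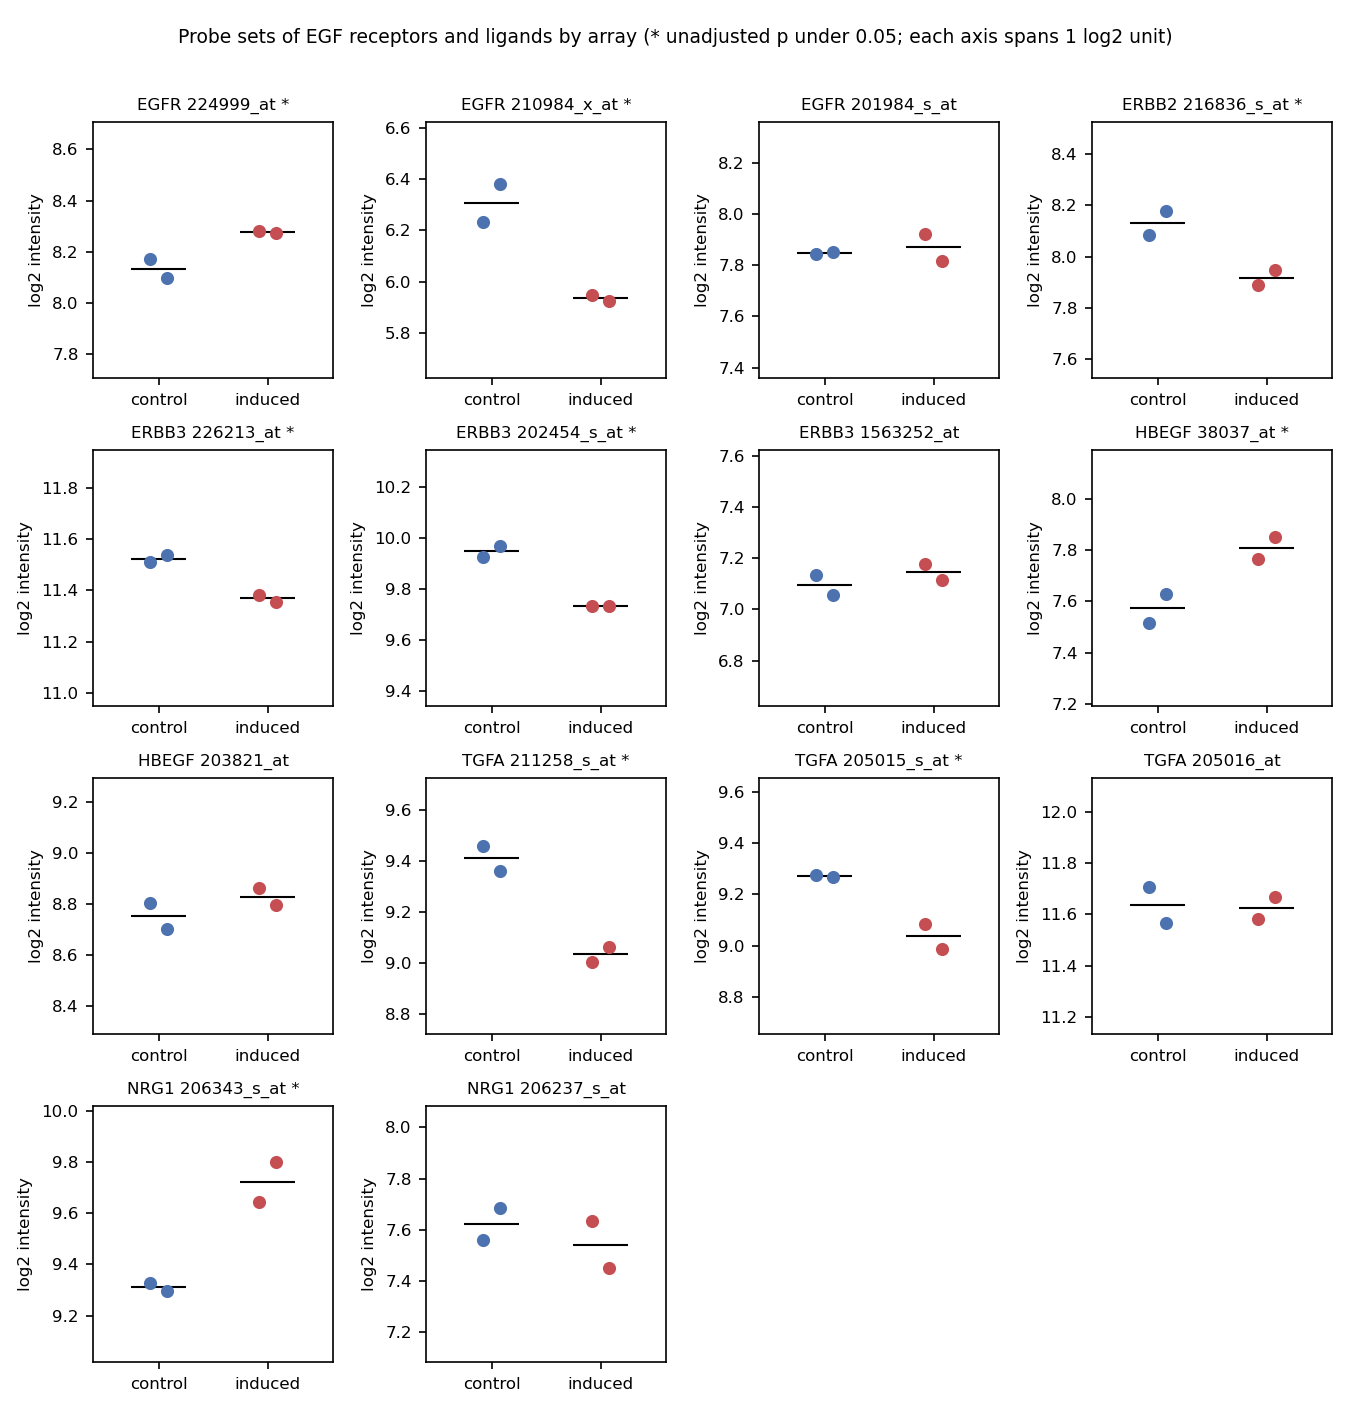
Log2 intensity of each array (vertical axes, each spanning 1 log2 unit) in control (blue) and induced (red) cultures, with horizontal bars at group means of 2 arrays. The 14 panels show the 9 probe sets at an unadjusted p under 0.05, starred, and for 5 genes the brightest other probe set above the median, such as TGFA 205016_at, where the groups overlap, beside TGFA 211258_s_at, where the induced arrays lie at 9.01 and 9.06 below the controls at 9.46 and 9.36.

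Of the ligands, TGFA was bright in all 3 of its probe sets. TGFA (transforming growth factor alpha) is an EGFR ligand that glioma cells are known to make and respond to. The probe set 211258_s_at read 9.46 and 9.36 in control cells, against 9.01 and 9.06 in induced cells. In 205015_s_at the controls had 9.27 and 9.27 and the induced arrays 9.08 and 8.99. For both, the induced pair was the lower, by gaps of 0.30 and 0.18 against 0.098 within groups. The differences were -0.37 (SE 0.056, adjusted p = 0.391) and -0.23 (SE 0.054, adjusted p = 0.472), or 0.77-fold and 0.85-fold. Each kept an unadjusted p under 0.05 in all 10 alternatives.

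The brightest TGFA probe set, 205016_at, did not show this. It stood at 11.71 and 11.57 in control cells, against 11.58 and 11.67 in induced cells, so the groups overlapped. Its difference of -0.01 had an interval from -0.14 to 0.12, which does not reach the values of the other two. The contrast of 211258_s_at minus 205016_at within an array was -2.25 and -2.21 log2 units in control cells, against -2.58 and -2.60 in induced cells. It differed by -0.36 between the groups, with a gap of 0.33 against 0.041 between replicates, and has no test of its own. The record behind 205016_at is the current RefSeq mRNA, and those behind the other two are not.

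NRG1 (neuregulin 1), the ligand of ERBB3 and ERBB4, had the largest positive difference of the family, in 1 of its 6 probe sets. The probe set 206343_s_at read 9.33 and 9.30 in control cells, against 9.64 and 9.80 in induced cells. Both induced arrays were higher, by a gap of 0.31 against 0.16 between them. The difference was 0.41 (SE 0.063, 95% interval 0.26 to 0.56, adjusted p = 0.391), or 1.33-fold, and it stayed at an unadjusted p under 0.05 in all 10 alternatives that keep the probe set apart. The annotation gives a RefSeq mRNA for it, which general knowledge, not the annotation, identifies as the form called SMDF. That form carries a cysteine-rich domain in place of the immunoglobulin-like domain of the heregulin forms.

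The other NRG1 probe sets, built on records of heregulin, GGF2 and NDF forms, gave no such reading. The brightest of these, 206237_s_at, read 7.56 and 7.68 in control cells, against 7.63 and 7.45 in induced cells. Together these 5 differed by -0.12 to 0.04, with overlap between the groups in every one, and the highest upper bound was 0.32. Within an array, the value of 206343_s_at minus that of 206237_s_at was 1.77 and 1.61 log2 units in control cells, against 2.01 and 2.35 in induced cells. This contrast was thus 0.49 higher after induction, with a gap of 0.24 between the groups and up to 0.34 between replicates. Averaged over its 6 probe sets, NRG1 differed by 0.02 (SE 0.056).

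HBEGF (heparin-binding EGF-like growth factor), which binds EGFR and ERBB4, had a higher reading in 1 of its 4 probe sets. In 38037_at the controls read 7.52 and 7.63 and the induced arrays 7.76 and 7.85, a gap of 0.13 against 0.11 between replicates. The difference was 0.23 (SE 0.072, adjusted p = 0.472), with an unadjusted p above 0.05 without the first control (0.109) or the second induced array (0.0875). The brighter 203821_at, on the current RefSeq mRNA, read 8.80 and 8.70 in control cells, against 8.86 and 8.80 in induced cells. There the groups overlapped, at a difference of 0.08 and an interval from -0.07 to 0.22. Their contrast within an array overlapped between the groups too. The 2 dim ones gave 0.06 and -0.16.

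EREG (epiregulin) and BTC (betacellulin), which bind EGFR and ERBB4, lie beside AREG on chromosome 4, where RefSeq lists EREG, AREG and BTC as consecutive protein-coding genes. EREG was dim, with 2.36 and 2.49 in control cells, against 2.58 and 2.47 in induced cells in the probe set on its current RefSeq mRNA, and the other probe set between 5.21 and 5.33. The differences were 0.10 and 0.06, with overlap in both. BTC was dim as well, at 3.22 and 3.20 in control cells, against 3.12 and 3.05 in induced cells in 207326_at. The induced arrays were lower there by a gap of 0.078, at a difference of -0.12 (SE 0.098), while the other probe set gave 0.03 with 0.59 between the controls. Intensities this low have no order between genes, and a small transcript level could not be told from none.

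**Figure D3:**
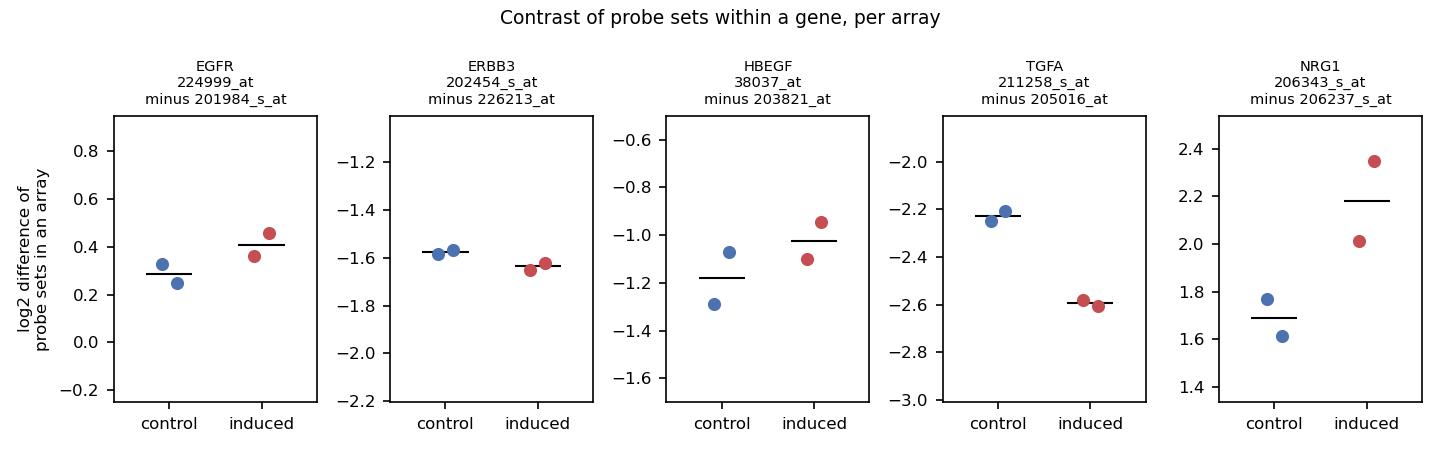
Difference between a pair of probe sets of the same gene within each array (log2 units, vertical axes of equal span), for the 5 genes with at least 2 probe sets above the array median, with control arrays in blue, induced arrays in red and bars at group means. Among probe sets at or above the array median, the pair is the one of smallest p and the brightest other one. EGFR 210984_x_at, of smaller p but below the median, is thus not in the EGFR pair. TGFA runs from -2.25 and -2.21 to -2.58 and -2.60 and NRG1 from 1.77 and 1.61 to 2.01 and 2.35, while the HBEGF groups overlap.

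RNA quality was read from the array's own controls beside these readings. The signal of the 3' end minus that of the 5' end was -0.036 and 0.021 log2 units for ACTB in control cells, against 0.033 and 0.11 in induced cells. The GAPDH values were -0.067 and -0.069 in control cells, against -0.043 and -0.047 in induced cells. Both shifts are towards the 3' end, and their part in the TGFA and NRG1 readings was not tested.

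The genes around the receptors were described through 7 lists, with 87 of 99 genes measured and 1 probe set per gene, the brightest. None passed over all probe sets, the lowest adjusted p being 0.472. At an unadjusted p under 0.05 stood 16 of the 87, 10 higher and 6 lower (18.4%), where 11.2% of all genes did, 6.48% higher and 4.73% lower. With arrays centred on their medians this split was 13 higher and 3 lower. The count fell to 5 without the second control and to 4 without the second induced array, fits in which 3.91% and 4.80% of all probe sets stood under that p. The median difference was -0.0046 over the 87 genes and -0.0030 over all genes. Most of the 87 had a mean at or above the array median, where 12.9% of all probe sets stood at an unadjusted p under 0.05.

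Ligand shedding had 2 genes higher and 2 lower of 8 at that p (25% each), with a median of -0.02. Over all genes the shares were 6.48% higher and 4.73% lower. ADAM17, the main protease that frees TGFA, HBEGF and other ligands, read 10.08 and 10.04 in control cells, against 10.23 and 10.24 in induced cells, a difference of 0.17 (SE 0.041). The related ADAM9 read 11.57 and 11.41 in control cells, against 11.69 and 11.86 in induced cells, a difference of 0.28 (SE 0.073). FRMD8, which stabilises the partner of ADAM17, was at 10.75 and 10.79 in control cells, against 10.65 and 10.63 in induced cells, or -0.13 (SE 0.038). Over all probe sets of each gene the differences ran from -0.07 to 0.17 for ADAM17, from -0.02 to 0.28 for ADAM9 and from -0.16 to 0.05 for FRMD8. The protease inhibitor TIMP3 was the fourth, at -0.20, and its 4 probe sets ran from -0.37 to -0.17.

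The list of receptor attenuation, which also holds genes of endosomal sorting, had 3 of 18 higher (16.7%), 0 lower and a median of 0.03. Of all genes, 6.48% were higher and 4.73% lower at that p. RAB7A, which takes endosomes to the lysosome, differed by 0.21 (SE 0.058), the endosomal deubiquitinase STAMBP by 0.11 (SE 0.044) and SOCS4, which promotes loss of EGFR, by 0.19 (SE 0.077). Each of these also had a probe set that pointed down, at -0.15 for RAB7A, -0.15 for STAMBP and -0.03 for SOCS4. The feedback inhibitor ERRFI1 (MIG6), which binds the EGFR kinase, was at 0.13 and did not reach that p, and is named after its value was seen.

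Of 12 measured genes of the adaptors and the RAS-ERK cascade, downstream of the receptors, 0 reached an unadjusted p under 0.05 in either direction, against 11.2% of all genes, with a median of -0.03. The exchange factors SOS2 and SOS1 stood at 0.17 and -0.12, and the kinase MAP2K2 at 0.07, and other probe sets reached -0.24 for SOS2 and -0.06 for MAP2K2. The PI3K-AKT arm had 0 higher and 1 lower of 8 (12.5%), with a median of -0.06. That one was AKT1, at 9.74 and 9.74 in control cells, against 9.63 and 9.58 in induced cells, a difference of -0.13 (SE 0.045). The ribosomal S6 kinase RPS6KB1 was at 0.11, with another probe set at -0.13, and the regulatory subunit PIK3R3 at -0.15.

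Transcripts known to respond to ERK lay on both sides of 0, with 2 of 20 higher and 2 lower (10% each) at an unadjusted p under 0.05. Over all genes the shares were 6.48% higher and 4.73% lower. The list had a median of -0.0032. The ERK feedback inhibitor SPRY4 read 8.61 and 8.71 in control cells, against 8.46 and 8.32 in induced cells, or -0.27 (SE 0.070). Its relative SPRY2 read 11.06 and 10.98 in control cells, against 11.15 and 11.17 in induced cells, or 0.14 (SE 0.040). The cyclin CCND1 differed by 0.21 (SE 0.060), and its other probe set by -0.15. PHLDA1 was the other lower one, at -0.10, the lowest of its 6 probe sets, which reach up to 0.42. ERK-induced EGR1 and DUSP6 were at 0.11 each, not reaching that p, and another probe set of DUSP6 was at -0.11. DUSP4, FOS and IER3 did not reach it either, at -0.09, -0.25 and -0.11. By sign, 9 of the 20 were higher and 11 lower.

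Other receptor tyrosine kinases had 3 of 17 higher, 1 lower and a median of 0.03. MET, the receptor of hepatocyte growth factor, read 9.73 and 9.56 in control cells, against 9.85 and 9.95 in induced cells, or 0.26 (SE 0.067). The WNT-binding RYK differed by 0.12 (SE 0.042) and IGF1R by 0.13 (SE 0.050). All 3 had another probe set below 0, down to -0.29 for MET. The lower one was the dim ROR2, at -0.27. Ligands outside the family's core had 0 of 4 under that p, and the brightest, NRG2, differed by -0.14 (SE 0.095), with another probe set at 0.16.

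**Figure D4:**
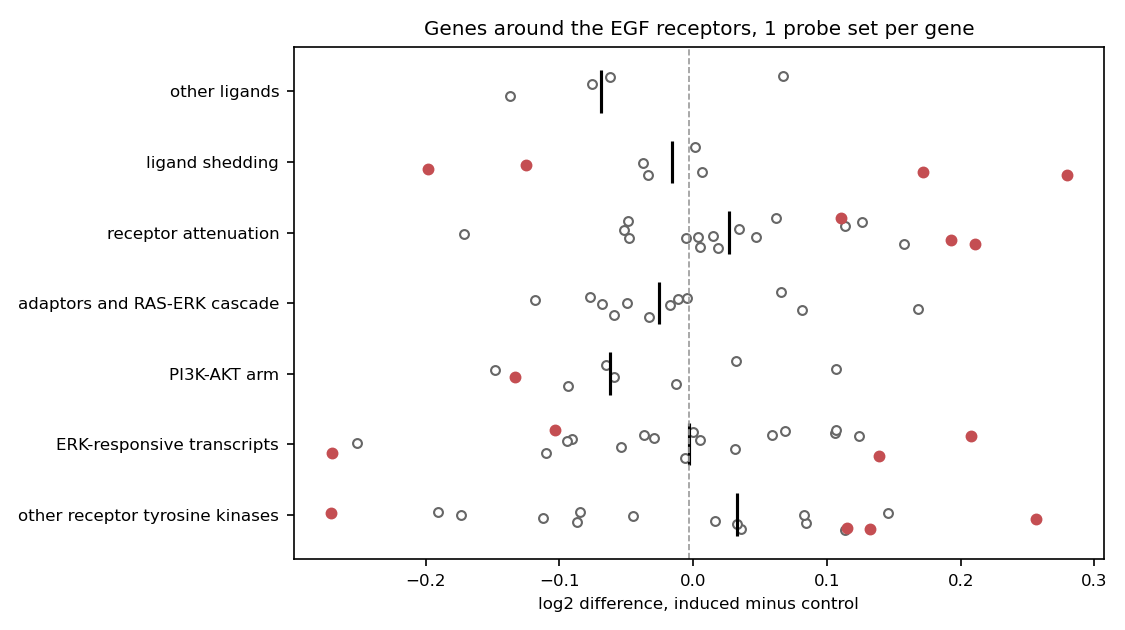
Induced minus control difference (log2 units, horizontal axis) of 87 genes in 7 lists around the EGF receptors, 1 point per gene, with filled red points at an unadjusted p under 0.05 and black bars at list medians. The dashed line marks the median of all genes at -0.0030, and the list medians run from -0.07 for other ligands to 0.03 for receptor attenuation and other receptor tyrosine kinases, and the shedding list has filled points on both sides.

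For the series as a whole, array medians were 6.15 to 6.19, and WIF1 was read by 1 dim probe set at 2.98 and 2.90 in control cells, against 2.93 and 3.03 in induced cells (difference 0.04, SE 0.10), so it does not check the labels. Markers of glioma cells such as VIM, NES, SOX2, S100B and CD44 were bright, from 10.87 to 14.19, while GFAP and AQP4 were below the array median. At an unadjusted p under 0.05, 4 of 10 glioma and astrocyte markers were lower (FABP7, S100B, SOX2 and AQP4) and 0 higher. Of all genes, 4.73% were lower and 6.48% higher at that p. Of 19 measured markers of neurons, leukocytes, endothelial and epithelial cells 1 was higher, the neuronal SYT1 at 0.35, and 0 were lower. All 4 measured neuronal markers had a mean above the array median, as had 3 of 5 endothelial ones (CLDN5, PECAM1 and VWF). Of the leukocyte markers 2 of 5 did (AIF1 and CD3E), and of the epithelial ones 2 of 5 (KRT14 and KRT5). PTPRC and EPCAM read at most 3.92 and 3.31 in their brightest probe sets. The summed linear intensity of the 4 neuronal markers was 849.7 and 813.7 in control cells, against 1009.5 and 966.3 in induced cells. This sum mostly follows SYT1, the brightest, at 9.07 and 8.95 in control cells, against 9.42 and 9.31 in induced cells. The others differed by 0.11 (SNAP25), 0.03 (RBFOX3) and 0.02 (SYP). The part of the sum in the readings above was not tested.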

How the data were processed

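RNA of 4 LN-229 cultures was hybridised to 1 array each. Deposited values are log2 intensities per probe set, summarised by RMA (package affy) per the submitters' processing notes, which give no version. RMA equalises array distributions, so a shift shared by most genes is lost. Scanner files were not used. Control probe sets (62 of 54675) were left out. Symbols came from the platform annotation, and all 38 probe sets matched RefSeq by gene identifier.

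Groups came from sample titles. Differences over 54613 probe sets were fitted with limma 3.58.1 in R 4.3.3 (eBayes with intensity trend, 2-sided, 6.27 degrees of freedom), adjusted by Benjamini-Hochberg at 0.05, and the script was tested on simulated data. SE and 95% intervals are the model's. P-values rest on the spread between these cultures, with 4.27 of the 6.27 degrees of freedom taken from the spread of all probe sets. From each list the 3 genes of smallest p with a mean at or above 6.16 are named. TIMP3, PHLDA1, EGR1, DUSP4, DUSP6, FOS, IER3, ERRFI1 and ROR2 were named after their values were seen. Genes and lists were chosen with earlier results of these data known. Alternatives were a replicate block, eBayes without trend or robust, centred arrays, cyclic loess, a filter on dim probe sets, averaged probe sets, a threshold of 0.1 and leaving out each array.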

Additional observations from a re-analysis of the deposited data

How the results depend on the processing

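Of the 38 probe sets of EGF receptors and ligands, 0 were called under any alternative run, including an adjusted p under 0.1, and their count at an unadjusted p under 0.05 went from 9 to between 7 and 9, the replicate block giving 8. Over the array, where 0 probe sets were called, robust eBayes called 2, arrays centred on their medians 5, cyclic loess 11 and a threshold of 0.1 called 2. At an unadjusted p under 0.05 the array held 2593 higher and 2876 lower probe sets, and after centring 3477 higher and 1869 lower, while the split over the 38 stayed at 3 and 6. Same-numbered arrays deviated together only weakly (correlation 0.056 over probe sets), so the numbers were not taken to pair the cultures. The 16 genes of the surrounding lists at that p became 6 without the trend, 7 with probe sets averaged per gene, 11 with the replicate block and 4 to 16 when 1 array was left out.

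Of 370 alternative values of single differences in these genes, 28 turned in sign, 7 of them with a difference beyond 1 SE in either analysis and 21 within it in both. Leaving out 1 array in turn gave ranges across 0 for EGFR 201983_s_at (-0.44 to 0.11), EGFR 211551_at (-0.15 to 0.13), EGFR 201984_s_at (-0.030 to 0.075), ERBB2 234354_x_at (-0.074 to 0.044), ERBB2 210930_s_at (-0.085 to 0.15), ERBB3 1563253_s_at (-0.15 to 0.011), ERBB4 233494_at (-0.13 to 0.21), ERBB4 214053_at (-0.030 to 0.35), ERBB4 233498_at (-0.051 to 0.18), TGFA 205016_at (-0.080 to 0.060), BTC 241412_at (-0.26 to 0.33), NRG1 206237_s_at (-0.17 to 0.011), NRG1 208230_s_at (-0.12 to 0.053) and NRG1 208231_at (-0.075 to 0.15). Centring on medians turned EGFR 211551_at to 0.014, ERBB2 234354_x_at to 0.0093 and TGFA 205016_at to 0.015, and cyclic loess the first pair to 0.0092 and 0.0027. Averaging the probe sets per gene turned EGFR from 0.14 to -0.045 and BTC from 0.03 to -0.045. Averaging also took ERBB2 to -0.07, ERBB3 to -0.09 and NRG1 to 0.02, each above 0.05 in unadjusted p, and TGFA to -0.21, below it. WIF1 lay between -0.0070 and 0.092 when 1 array was left out, turning in sign without the second induced array. The cause was not tested; leaving out an array makes the fit take the spread of the remaining one from the other group. Low signal limits what can be said of ERBB4, EREG and BTC.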
